A study of Saccharomyces cerevisiae with 137 samples.

Results

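Budding yeast lacking the transcription factor gene GLN3 was followed during the return to 30 °C after a cold shock, in 8 arrays from 5 culture flasks out of 137 arrays from 30 flasks in the whole series. The arrays were chosen by their titles: every array of the delGLN3 strain taken after 60 min at 13 °C and then 30 min (t90) or 60 min (t120) at 30 °C. Flasks 1, 2, 3 and 5 were measured at t90 and flasks 1, 2, 4 and 5 at t120, so 3 flasks had both times. Array values are listed below in that flask order. The delGLN3 strain is BY4741 with GLN3 (YER040W) deleted, grown from a single colony in YEPD with 200 µg/mL G418, an aminoglycoside antibiotic. Within the strain, recovery was set against t0, the sample taken from the same flask at 30 °C before the shock, and against t60, the 4 arrays taken at the end of the cold phase from flasks 1 to 4. Between strains, delGLN3 was set against 30 recovery arrays from 15 flasks of delCIN5, delHAP4, delSWI4 and delZAP1, each BY4741 with 1 other transcription factor gene deleted and grown in the same medium with G418. It was also set against wild type, 10 recovery arrays from 5 flasks grown in YEPD without G418, of which flask 0 was BY4739 and the others BY4741. Since all delGLN3 flasks held G418 and no wild-type flask did, the deletion and the antibiotic cannot be told apart in that comparison. The strain delHMO1 was left out because the direction of its ratios was not settled.

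Gln3 is a GATA-type activator of genes for the uptake and breakdown of poor nitrogen sources. In cells with a good nitrogen supply it is held in the cytoplasm by Ure2, which keeps those genes low, a control known as nitrogen catabolite repression. Gat1 is another activator of many of the same genes, and Dal80 and Gzf3 are repressors that bind similar sites. YEPD is a rich medium, in which Gln3 is largely inactive in wild-type cells. On a shift between temperatures, yeast is known to adjust the general stress genes, the ribosome-building genes and the enzymes that set membrane fluidity.

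Each array compared a shifted sample with t0 by 2 dyes, and the deposited value is the authors' score per open reading frame, a log ratio taken here as likely to run shifted over t0. Scores have a median near 0 and a scaled median absolute deviation (MAD) of 1 on each array, so 1 unit is 1 such deviation. A score is therefore not a fold change. The 8 recovery arrays measured 5598 to 5985 of 6178 frames. Pairwise correlations among them were low, from -0.08 to 0.44 with a median of 0.17 over 28 pairs, and from 0.11 to 0.40 over the 3 pairs from the same flask. The t120 array of flask 1 stood apart: its median correlation with the others was -0.03, and 108 of its 110 chromosome I frames had no value, against 2 to 15 on the other 7 arrays. The t60 array of flask 2 went against its label. Its correlations with the other t60 arrays were -0.24 to -0.09, and its closest recovery array was t90 of the same flask (r = 0.54). Main counts are given with and without these arrays, as are the list counts and gene values below that they move most. Leaving out a flask removes all of its arrays, those of the cold phase included. All delGLN3 slides were Ontario chips with a coating, whereas wild-type flasks 0 and 1 were on GCAT chips, and delHAP4 and delSWI4 flasks 2 to 4 were on uncoated slides.

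GLN3 itself had scores of -2.81, -0.08, 0.17 and 0.48 at t90 and -0.56, 0.03, -1.59 and -0.97 at t120. Both dyes of each array came from the deleted strain, so these ratios do not check the deletion.

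In recovering delGLN3 cells, 12 of 34 general stress genes and the purine enzyme gene ADE6 were higher than at t0, and the fatty acid desaturase gene OLE1 and 22 of 132 ribosome biogenesis genes were lower. Over the mean of t90 and t120, 246 of 6019 tested frames passed the threshold of an adjusted p below 0.05 (4.09%), 123 higher (2.04%) and 123 lower (2.04%). The test was limma with 1 mean per time, the flask as a random block and Benjamini-Hochberg adjustment. Of the 246, 196 had the same sign in every flask with a value. The p-values measure only the spread among the 20 delGLN3 arrays of these flasks around the mean of each time, those of the cold phase included. Of these flasks 2 were grown on the same day per the labels, with no record here of which. In RNA from whole cultures, fewer cells in a state and less RNA per cell cannot be told apart. The count depended on single flasks: it was 42 without flask 4, 12 without flask 5, 403 without the t120 array of flask 1 and 382 without the t60 array of flask 2. Fitted on the 8 recovery arrays alone, 50 frames passed, and with 1 mean per flask 44.

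HSP12, which encodes a small membrane-associated heat shock protein, had the highest mean score. It read 10.83, 7.23, 6.81 and 8.18 at t90 and 0.75, 5.14, 12.37 and 16.32 at t120, a mean of 8.44 (SE 1.19, adjusted p = 0.00147). All 8 arrays were above 0, and only the t120 array of flask 1 was below 5. ADE6, the gene for a middle step of purine synthesis, read 7.75, 6.40, 6.32 and 5.11 at t90 and -1.07, 2.38, 8.84 and 9.49 at t120 (mean 5.64, SE 0.91, adjusted p = 0.00274). Its t90 values lay close together, while its t120 values spread over both signs. The uncharacterized stress transcript RTC3 was above 0 on every array, at 5.37, 4.49, 3.79 and 1.79 at t90 and 1.48, 1.79, 1.48 and 3.21 at t120 (mean 2.90, SE 0.50, adjusted p = 0.00398).

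MSC1 averaged 4.00 (SE 0.60, adjusted p = 0.00195), with arrays between 0.15 and 7.45. HSP42, a small heat shock chaperone gene, averaged 3.63, and YGP1, for a secreted glycoprotein of the cell wall, averaged 3.44. PNS1, SOL4 (6-phosphogluconolactonase of the pentose phosphate pathway) and HOR7 averaged 3.39, 3.20 and 2.72. These genes share a pattern in which the t120 array of flask 1 lies near 0, from -0.68 for HOR7 to 0.96 for YGP1. ALD6, for the cytosolic aldehyde dehydrogenase that makes acetate, averaged 3.09, and CIN5, a Yap-family transcription factor gene, averaged 2.69.

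OLE1, the gene for the only fatty acid desaturase of yeast, had the lowest mean. It read -1.27, -12.07, -9.40 and -6.68 at t90 and -1.47, -7.78, -11.22 and -12.74 at t120 (mean -7.85, SE 1.33, adjusted p = 0.00362). Both arrays of flask 1 were close to 0 and the other 6 were at -6.68 or lower. IZH1 and IZH4, for membrane proteins of the zinc and lipid response, averaged -3.81 and -4.46, the second without a value at t90 in flask 1. FAA4, a long-chain acyl-CoA synthetase gene, averaged -3.76 (SE 0.80, adjusted p = 0.012), from -7.64 to 1.11 over the arrays.

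RNR4, a ribonucleotide reductase subunit gene, read -4.77, -5.16, -6.24 and 0.49 at t90 and 1.85, -5.48, -4.35 and -5.74 at t120 (mean -3.68, SE 0.80, adjusted p = 0.0141). It was far below 0 on 6 arrays and above 0 on the 2 others, t90 of flask 5 and t120 of flask 1. PGA3, for a cytochrome b5 reductase-like protein, was below 0 on every array, at -3.46, -2.07, -4.07 and -1.11 at t90 and -0.39, -1.65, -4.53 and -2.97 at t120 (mean -2.58, SE 0.41, adjusted p = 0.00264). URA7, a CTP synthase gene, averaged -2.71, and MXR1, a methionine sulfoxide reductase gene, averaged -2.59. REX4, for a putative RNA exonuclease, averaged -3.01 (SE 0.72, adjusted p = 0.0238), with -10.03 in the only array of flask 4 and -4.50 to -0.12 elsewhere. The unnamed frames YGR160W and YDR274C averaged -3.02 and -2.74. YBR012W-A and YMR046C averaged -3.36 and -3.09 and overlap other frames in the gene table, so their signal cannot be assigned to 1 gene.

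**Figure D1:**
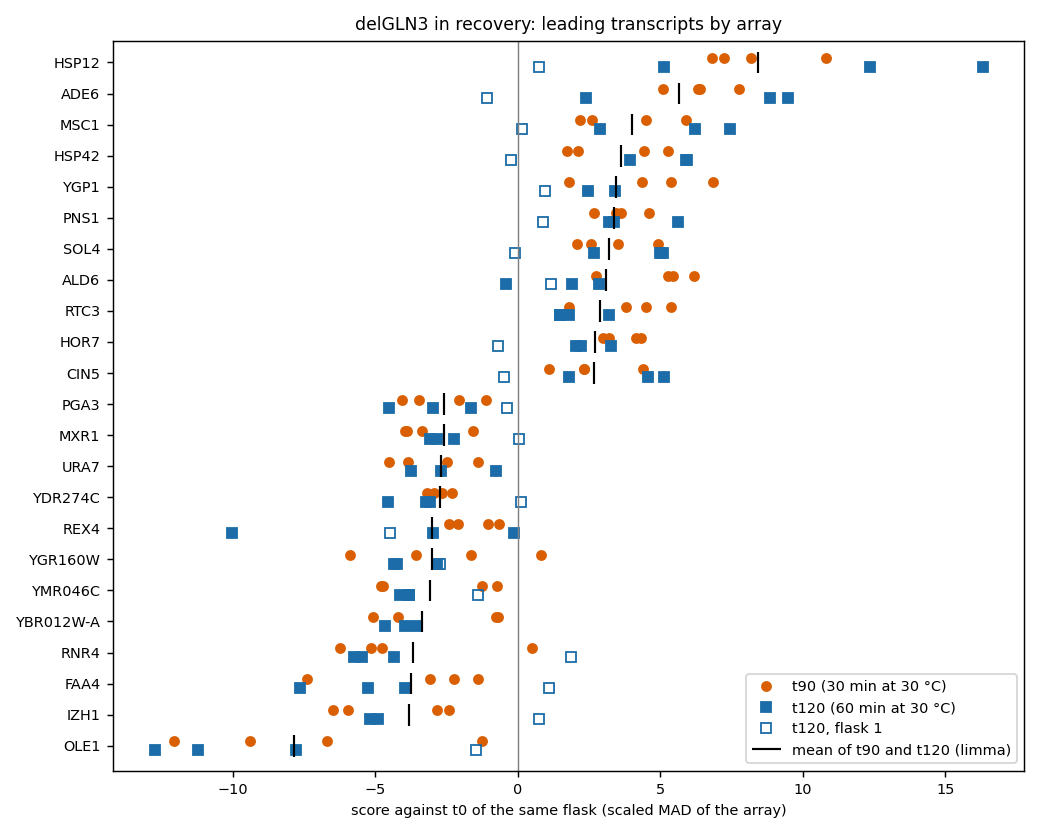
Scores against t0 (in scaled MAD, horizontal axis) of 11 of the 12 highest and of the 12 lowest transcripts that passed in recovering delGLN3 cells with 1 sign in every flask mean, 1 point per array, with t90 as circles, t120 as squares and the t120 array of flask 1 as open squares. The black bars are the limma means. The open squares lie nearer 0 than the bars for most genes, as for HSP12 (0.75 against a mean of 8.44).

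The general stress list gave the most members higher than t0: 12 of 34 tested passed, none was lower, and 22 did not pass. Its median was 1.23, against 0.00 over all frames tested. Beside the genes above, UGP1, which makes UDP-glucose for trehalose and glycogen, averaged 2.44 (SE 0.47, adjusted p = 0.00662). CTT1, the cytosolic catalase gene, averaged 2.38 (SE 0.45, adjusted p = 0.00652), with all 8 arrays above 0, from 0.27 to 5.12. NCE103, the carbonic anhydrase gene, had a mean of 5.50 (SE 1.50, adjusted p = 0.0446) with flask 2 apart from the rest. It read 9.17, -2.77, 6.59 and 6.88 at t90 and -0.71, -0.84, 11.24 and 14.18 at t120, and was named after its values were seen. The list's count was 16 without the t120 array of flask 1, 5 without flask 4, 2 without flask 5 and 8 with 1 mean per flask. Of the 30 heat shock proteins and chaperones, HSP42 and BTN2 passed, both higher, against 123 higher of 6019 frames (2.04%). The median of that list was 0.03.

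Among cell wall mannoproteins, 6 of 22 passed higher and 1 lower, with a median of 0.60, against 2.04% of all frames in each direction. CWP1 averaged 4.61 (SE 0.94, adjusted p = 0.00974) and read -1.08, 9.16, 5.25 and 8.49 at t90 and -0.86, 6.64, 3.31 and 6.69 at t120. Flask 1 was below 0 at both times and every other array above 3. The other 5 were YGP1, TIR2 (2.47), SPI1 (1.58), HSP150 (1.27) and SED1 (1.06), all coding for wall or secreted proteins. TIP1, a cell wall mannoprotein gene known for its cold induction, was the 1 lower member (mean -2.37). None of these 7 passed without flask 5, and without flask 4 only 2 members passed, both higher.

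Ribosome biogenesis gave the largest lower group. Of 132 tested members 22 were lower and none higher, against 123 lower of 6019 frames (2.04%). The list had a median of -1.21, and 110 members did not pass. RLP7, for a pre-60S assembly factor, read -2.11, -2.08, -2.80 and -1.57 at t90 and -0.16, -3.06, -3.76 and -1.26 at t120 (mean -2.12, SE 0.35, adjusted p = 0.00362). All of its arrays were below 0, the t120 array of flask 1 least. DHR2, an RNA helicase gene of the small subunit, averaged -2.43, RPF1 averaged -2.11 and SQT1, a chaperone of Rpl10, averaged -1.90. The group's count was 39 without the t120 array of flask 1, 53 without the t60 array of flask 2, 3 without flask 4, 1 without flask 5 and 6 with 1 mean per flask. Among 24 subunit genes of RNA polymerases I and III, RPA49 (-2.10) and RPC34 (-2.18) were the 2 that passed, against 2.04% of all frames lower. That list had a median of -0.69 and 4 lower without the t120 array of flask 1. By time, the ribosome biogenesis list had 7 lower at t90 (median -1.55) and 0 lower at t120 (median -0.84, 27 at an unadjusted p below 0.05 in limma). Of 133 cytosolic ribosomal protein genes 2 passed, RPL8B (1.63) and RPS14B (1.65), both higher, against 123 higher of 6019 frames (2.04%). Neither passed without flask 2, 3, 4 or 5, or with 1 mean per flask. The median of that list was -0.12. It joins 0.37 at t90, where 1 was higher, and -0.49 at t120, where 1 was lower.

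**Figure D2:**
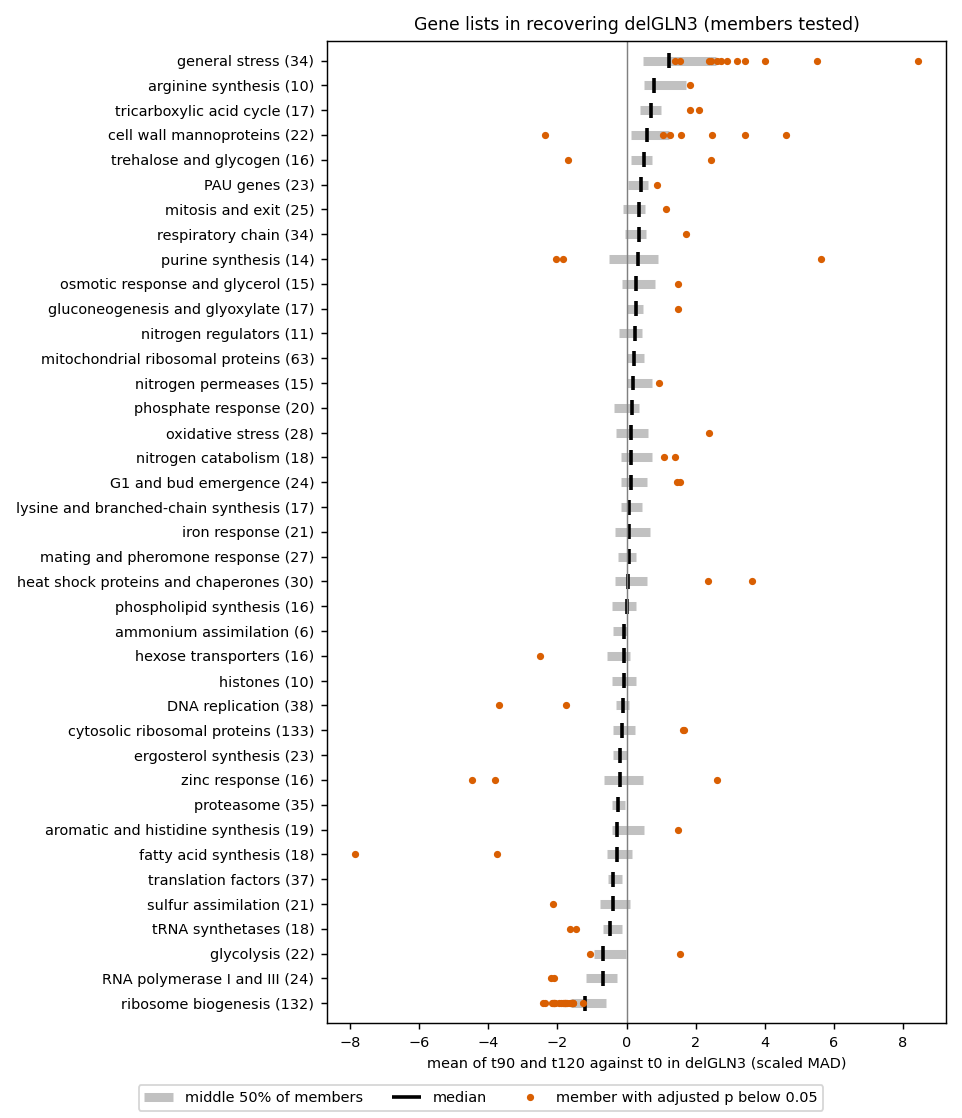
Mean of t90 and t120 against t0 in delGLN3 (scaled MAD, horizontal axis) for each gene list, with the number of members tested in brackets. Grey bars span the middle 50% of members, black marks are medians and orange points are members that passed. General stress has the highest median (1.23) and ribosome biogenesis the lowest (-1.21).

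On each list of metabolism below 1 or 2 genes passed, against 246 of 6019 frames (4.09%). The means of some lists lay mostly on 1 side of 0. In the tricarboxylic acid cycle, 16 of 17 members had means above 0 and 2 passed, MDH1 (2.10, mitochondrial malate dehydrogenase) and IDH1 (1.83, isocitrate dehydrogenase), with a median of 0.71. Arginine synthesis had 1 of 10 higher, ARG2 (1.84, SE 0.35, adjusted p = 0.00665), all 10 members had means above 0, and without the t120 array of flask 1, 5 passed. ARG2 read 2.05, 2.24, 1.42 and 2.34 at t90 and 1.49, 2.23 and 1.23 at t120, without a value in flask 1. Those 7 values lay close together. In glycolysis HXK1, a hexokinase gene, averaged 1.54 and TPI1, triosephosphate isomerase, averaged -1.07, while 5 of 22 members had means above 0 and the median was -0.68. Without the t120 array of flask 1, 3 glycolytic genes were lower. The glucose transporter gene HXT1 averaged -2.51 (SE 0.50, adjusted p = 0.00753), though its near-identical relatives may share its probe.

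On the lists of nitrogen genes the share that passed against t0 was near that of all frames. These lists hold regulators, GLN3 itself among them, and were not limited to genes under nitrogen catabolite repression. Of 52 genes on 4 lists (regulators, permeases, catabolic enzymes and ammonium assimilation), 50 were tested, 3 passed, all higher, and 11 had an unadjusted p below 0.05, against 246 and 1143 of 6019 frames. Their median was 0.13. GAP1, the general amino acid permease gene, read 1.32, 0.21, 0.37 and 0.20 at t90 and 1.46, 1.00, 1.08 and 2.06 at t120 (mean 0.95, SE 0.26, adjusted p = 0.0446). PUT1, for proline oxidase, read 2.73, 1.01, 0.90 and 0.62 at t90 and 0.69, 1.83, 1.41 and 2.14 at t120 (mean 1.40, SE 0.35, adjusted p = 0.0289). Both were above 0 on every array. PRB1, for vacuolar proteinase B, read 0.25, 0.96, -0.73 and 0.02 at t90 and 1.83, 2.07, 2.56 and 1.79 at t120 (mean 1.07, SE 0.25, adjusted p = 0.0179). Its t90 and t120 values did not overlap. None of these 3 passed without flask 4, without flask 5 or with 1 mean per flask.

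GAT1, the other GATA activator, was the only nitrogen gene past the threshold at t90. It read 7.00, 3.31, 2.66 and 2.48 there (mean 3.81, SE 0.90, adjusted p = 0.037) and -2.05, 1.82, -2.84 and 5.01 at t120. All t90 values were above 0, whereas the t120 values were split evenly by sign. At t120 only PRB1 passed (2.02, SE 0.34, adjusted p = 0.0108). Neither the 50 genes tested against wild type nor the 46 tested against the other deletion strains held one that passed. The lowest adjusted p was 0.105 against wild type and 0.098 against the other strains, and 9 and 7 genes had an unadjusted p below 0.05, against 685 of 6017 and 642 of 5699 frames. The median differences were -0.14 and -0.01, against -0.04 over all frames in each comparison. CAR1, for arginase, had delGLN3 flask means of 1.10, 1.13, -1.13, 1.59 and 0.74, against 1.34 to 3.62 in wild-type flasks (difference -1.66, SE 0.49, adjusted p = 0.105). MEP3, an ammonium permease gene, had delGLN3 flask means of 0.56, 1.39, -0.25, 0.73 and 1.71, against -0.74 to 0.15 in wild-type flasks (difference 1.24, SE 0.37, adjusted p = 0.105). In each gene 1 delGLN3 flask lay inside the wild-type range, flask 4 for CAR1 and flask 3 for MEP3.

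**Figure D3:**
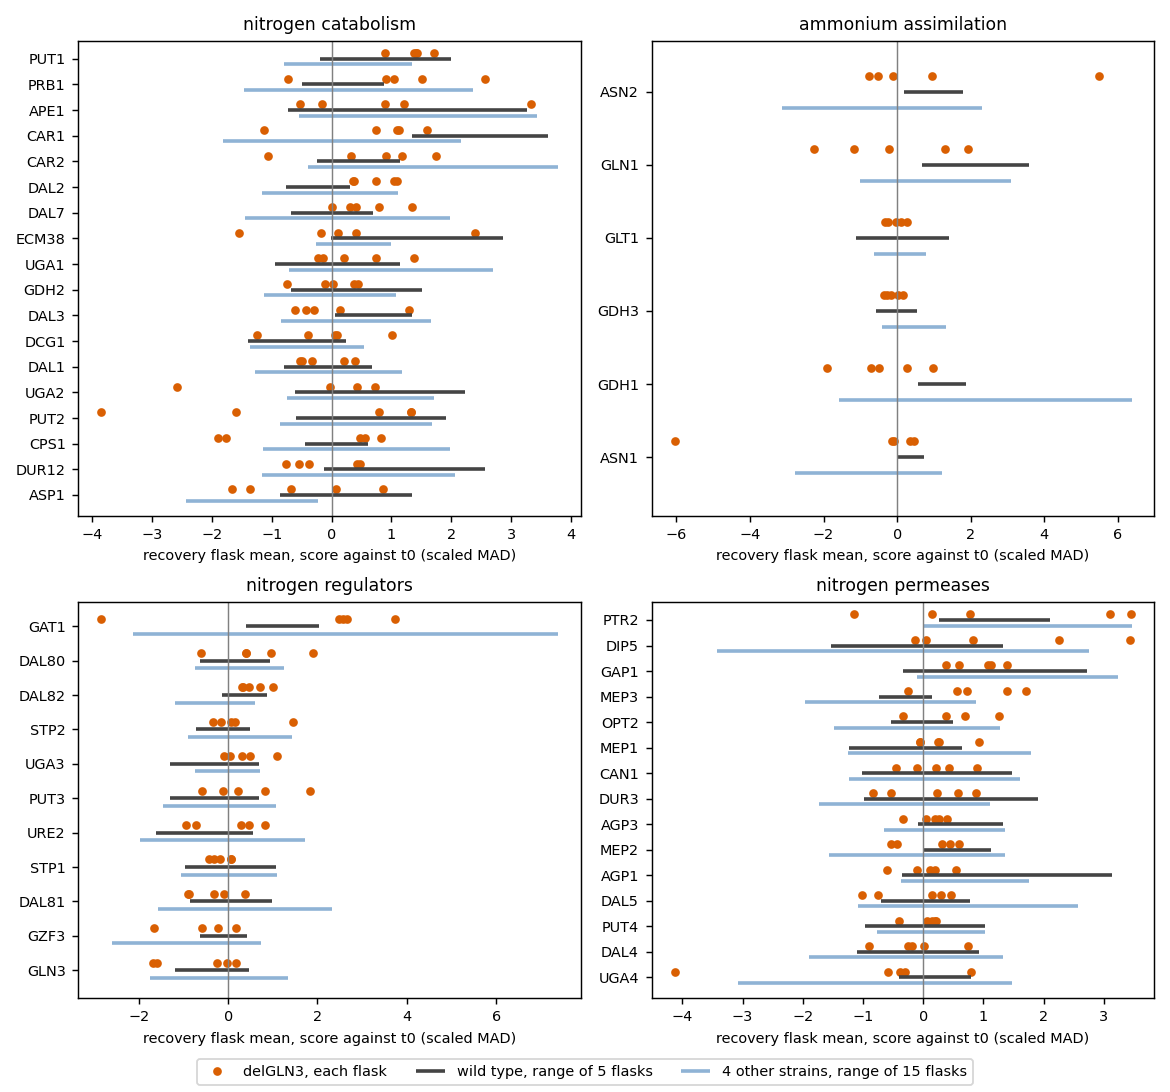
Recovery flask means against t0 (scaled MAD, horizontal axes) of the nitrogen genes by list. Points are the 5 delGLN3 flasks, dark bars the range of 5 wild-type flasks and light bars the range of 15 flasks of 4 other deletion strains. For GAP1 and PUT1 all delGLN3 points lie inside the bar of wild type.

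The 2 recovery times were then taken apart. At t90, 89 of 6019 frames passed (1.48%), 46 higher (0.764%) and 43 lower (0.714%). On the purine synthesis list 1 of 14 was higher and 2 were lower, with a median of -0.92, and none passed without flask 5. IMD2, for the IMP dehydrogenase that starts GMP synthesis, read -4.98, -5.02, -2.75 and -4.08 at t90 and -1.02, -1.10, 0.11 and -1.52 at t120. All t90 values lay below all t120 values, but IMD2 did not pass in the test of t120 minus t90. Its t90 mean against t0 was -4.15 (SE 0.65, adjusted p = 0.00275). IMD3 (-3.17) passed at t90 too, as did the chromosome I frames YAR073W (-4.31), YAR075W (-3.72) and YAR074C (-3.60). IMD genes are near-identical to each other, so their values may not be separate. ADE12, for the first step from IMP to AMP, averaged -2.13 at t90 (SE 0.40, adjusted p = 0.0128), with all 4 arrays at -1.60 or lower, and 0.59, 1.09 and 1.30 at t120. It was chosen after its values were seen.

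The highest mean at t90 among frames that passed, after HSP12 and ADE6, was that of NPL3, for an mRNA-binding protein, whose 3 arrays read 9.85, 2.37 and 5.70 (5.75, SE 1.08, adjusted p = 0.0124). Among frames that passed, CWP1, ALD6, YGP1 and RTC3 followed at 5.34, 4.91, 4.62 and 3.85. ALD6 read 5.27, 6.19, 2.75 and 5.44 at t90 and 1.16, -0.40, 2.85 and 1.89 at t120, so that the lowest t90 value lay just inside the t120 values. The t90 count was 206 without the t60 array of flask 2, 40 without flask 3, 4 without flask 5 and 16 on the 8 recovery arrays alone, since the times share 1 estimate of the spread.

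At t120, 37 of 6019 frames passed (0.615%), 30 higher (0.498%) and 7 lower (0.116%). GCV1, for the T subunit of glycine decarboxylase, read 0.74, -0.02, -0.91 and -0.47 at t90 and 0.42, 5.85, 6.25 and 8.92 at t120 (t120 mean 5.31, SE 0.86, adjusted p = 0.0103). It stood near t0 at t90 and far above it in 3 of 4 flasks at t120, where its mean was 7.02 without the array of flask 1. GCV3, the H subunit, read 3.32, 4.14 and 4.29 at t120 without a value in flask 1 (3.87, SE 0.66, adjusted p = 0.0116). GCV2, the P subunit, and SHM2, the cytosolic serine hydroxymethyltransferase, reached 3.74 and 4.35, both looked up after GCV1 and GCV3. The purine genes ADE1 and ADE8, which act in the middle and early part of the pathway, averaged 1.83 and 1.73. With SHM2, which is on that list for its supply of one-carbon units, 3 of 14 purine synthesis genes were higher at t120 and none was lower. That count was 5 higher and 1 lower without the t120 array of flask 1, and 0 without flask 4 or flask 5.

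TMT1, for trans-aconitate methyltransferase, averaged 4.49 at t120. Lower at t120 were REX4 (-4.38), SFG1 (-2.81, a transcription factor gene of filamentous growth) and RPL42B (-1.73, a large-subunit ribosomal protein). YDR278C read -2.22, -1.89, -2.76 and -2.72 at t120 (mean -2.40, SE 0.41, adjusted p = 0.0116). The count at t120 was 188 without the t120 array of flask 1, 146 without the 4 arrays of flask 1, 98 without the t60 array of flask 2 and 0 without flask 4 or flask 5 (530 and 628 frames at an unadjusted p below 0.05 in limma). On the 8 recovery arrays alone it was 0, with 588 at that unadjusted level.

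Between t120 and t90 of the strain, 3 of 6019 frames differed (0.0498%), 2 higher at t120 (0.0332%) and 1 lower (0.0166%), while 490 had an unadjusted p below 0.05. BDH1, for butanediol dehydrogenase, read 1.79, 3.72 and 1.26 at t120 and -1.04, -2.33, -1.92 and -2.80 at t90 (difference 4.31, SE 0.70, adjusted p = 0.0118). ADE1, a purine synthesis gene, read 1.67, 1.86 and 1.95 at t120 and -1.31, -1.10, -0.30 and -1.64 at t90 (difference 2.93, SE 0.43, adjusted p = 0.00486). Both are on chromosome I and had no t120 value in flask 1. HMO1, for a high-mobility-group protein at ribosomal genes, read -0.34, -2.06, -1.09 and -2.05 at t120 and 1.47, 1.53, 2.59 and 2.13 at t90 (difference -3.27, SE 0.48, adjusted p = 0.00486). In all 3 genes the times lay on opposite sides of 0. IMD2, ADE12, GCV1 and PRB1 were not among the 3 that passed between the times. The count was 7 without flask 1 or without the t60 array of flask 2, 11 without the t120 array of flask 1, 1 without flask 4 and 0 without flask 5 (368 at an unadjusted p below 0.05 in limma).

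**Figure D4:**
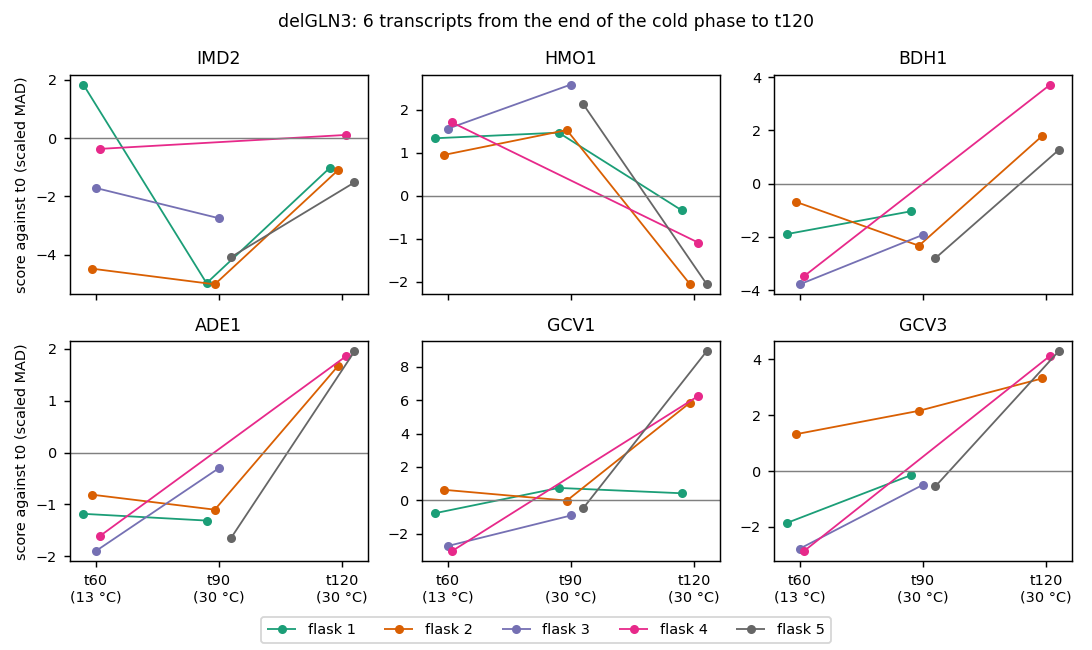
Scores against t0 (scaled MAD, vertical axes) of 6 delGLN3 transcripts at t60 (13 °C), t90 and t120 (30 °C), with 1 line per flask that joins the times measured in it. HMO1 lies above 0 at t90 and below 0 at t120 in each flask measured, and the GCV1 line of flask 1 stays near 0.

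Recovery was set against the end of the cold phase in the same strain. Of 5965 frames 316 passed (5.3%), 121 higher in recovery (2.03%) and 195 lower (3.27%). SOL4 read 4.91, 3.50, 2.58 and 2.09 at t90 and -0.10, 2.67, 5.08 and 5.00 at t120, against -3.43, 1.33, -2.70 and -6.52 at t60 in flasks 1 to 4 (difference 6.01, SE 1.07, adjusted p = 0.00983). OLE1, with the recovery values above, read 1.47, -8.71, 5.06 and 2.82 at t60 (difference -7.97, SE 2.13, adjusted p = 0.0368). In both genes the t60 value of flask 2 lay within the recovery values and the other 3 flasks did not. Without that array the differences were 7.46 for SOL4 and -10.9 for OLE1.

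PNC1, a nicotinamidase gene, was 4.60 higher in recovery than at t60, and HSP12 7.91 higher. The zinc and lipid response genes IZH4, IZH1 and IZH2 differed by -6.93, -6.64 and -5.40, and with the zinc transporter gene ZRT2 they were the 4 of 16 zinc response genes that passed, all lower; 6 passed without the t60 array of flask 2. RLP7 was among 48 of 132 ribosome biogenesis genes that were lower than at t60 (difference -4.91, SE 0.63, adjusted p = 0.00156). RLP7 had no t60 value in flask 2. The list had a median of -2.33, against 0.00 over all frames. The general stress list had 8 members higher and none lower, and 16 higher without the t60 array of flask 2.

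These counts turned on single libraries. Without the t60 array of flask 2, 916 frames passed and 101 of the ribosome biogenesis genes were lower; without all arrays of flask 2, 780 frames passed. Without flask 1, 3, 4 or 5 the count was 68, 0, 2 or 15, with 866 frames at an unadjusted p below 0.05 in limma when flask 3 was left out. With the flask as a fixed block, which is a pairing by the same culture, it was 185.

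Against wild type, 51 of 6017 frames differed in recovery (0.848%), 19 higher in delGLN3 (0.316%) and 32 lower (0.532%). The flask means of the strains did not overlap in 29 of these 51, and in 107 of all 6017 frames tested. In delGLN3 the mean of flask 3 is its t90 array and that of flask 4 its t120 array. Every recovery flask of wild type and of the other deletion strains was measured at both times. ADE6 had flask means of 3.34, 4.39, 6.32, 8.84 and 7.30 in delGLN3, against 0.18, 0.48, 1.52, 0.52 and 0.28 in wild-type flasks 0 to 4 (difference 5.03, SE 0.98, adjusted p = 0.00671). The other deletion strains spanned -1.80 to 8.73, and delGLN3 did not pass against them (difference 1.51, adjusted p = 0.539). ISU1, for the scaffold on which iron-sulfur clusters are built, had 1.32, 1.68, 3.78, 4.85 and 3.34 in delGLN3 and -0.45 to 0.55 in wild type (difference 2.49, SE 0.60, adjusted p = 0.0314). CTT1, with flask means of 1.00 to 3.58 in delGLN3 and -0.75 to 0.49 in wild type, differed by 2.46 (SE 0.54, adjusted p = 0.017). These 3 genes were named for flask means that do not overlap, so that all 5 delGLN3 flasks lie above all 5 wild-type flasks by choice. None of the 3 passed with only Ontario chips or on the recovery arrays alone, and ISU1 did not pass when any 1 wild-type flask was left out. DIC1, the mitochondrial dicarboxylate carrier gene, JLP2, SCW11 and SSU1 were 2.10, 2.15, 1.73 and 1.62 higher.

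The acid phosphatase gene PHO11 had the smallest adjusted p against wild type of the genes named. Its flask means were 0.32, -0.76, 0.05, -0.81 and 0.15 in delGLN3, against 2.75, 3.74, 2.80, 1.84 and 2.78 in wild type (difference -3.02, SE 0.45, adjusted p = 0.000248). PHO12, a near-identical gene, had -0.71 to 0.93 in delGLN3 and 2.42 to 2.77 in wild type (difference -2.90, SE 0.49, adjusted p = 0.00109). The delGLN3 flasks lay near t0 and all wild-type flasks above it. Of 20 phosphate response genes 5 were lower than in wild type and none higher, with a median difference of -1.23, and 3 were lower without delGLN3 flask 4 or flask 5. The others were the acid phosphatase genes PHO5 (-2.38) and PHO3 (-2.48) and SPL2 (-2.69), a regulator of low-affinity phosphate uptake. The acid phosphatase genes are close relatives and may share signal. Against the other deletion strains PHO11 differed by -0.80 (SE 0.32, adjusted p = 0.297), and those strains spanned -1.10 to 2.02.

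Of 22 glycolytic genes 6 were lower than in wild type and none higher, with a median difference of -1.84. TDH1, for a glyceraldehyde-3-phosphate dehydrogenase, had flask means of -0.74, -0.33, -2.18, -0.29 and -1.94 in delGLN3 and 0.47 to 4.93 in wild type (difference -3.33, SE 0.72, adjusted p = 0.0163). PDC6 (-2.79), PDC1 (-2.50), PGI1 (-2.31), CDC19 (-2.31) and TPI1 (-2.04) made up the rest, of which PGI1, CDC19 and PDC1 were named after their values were seen. The TDH and PDC genes have close relatives whose signal they may share. None of the 6 passed without delGLN3 flask 5. CYS3, for cystathionine gamma-lyase of sulfur amino acid synthesis, had -3.05, -2.53, -1.64, -2.09 and -1.88 in delGLN3 and -0.95 to 1.32 in wild type (difference -2.62, SE 0.49, adjusted p = 0.00458). VAS1, the valyl-tRNA synthetase gene, had -2.05 to -1.48 in delGLN3 and 0.94 to 1.54 in wild type (difference -2.78, SE 0.56, adjusted p = 0.00863).

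The count of 51 was 7 without delGLN3 flask 5, 30, 30, 19 and 22 without wild-type flasks 0, 2, 3 and 4, 21 with only Ontario chips and 2 on the recovery arrays alone. It was 27 at t90 alone and 9 at t120 alone.

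Against the 4 other deletion strains, which were grown with G418 too, 57 of 5699 frames differed (1%), 33 higher in delGLN3 (0.579%) and 24 lower (0.421%). The flask means did not overlap in 7 of these 57, and in 9 of all 5699 frames tested. OPI3, for the methyltransferase that completes phosphatidylcholine synthesis, had flask means of 0.36, 0.40, 0.29, 0.13 and -0.09 in delGLN3. The 15 flasks of the other strains had 1.45 to 5.56 with a median of 3.48 (difference -3.23, SE 0.52, adjusted p = 8.91e-05), and wild type had 1.67 to 5.51 (difference -3.03, SE 0.73, adjusted p = 0.0314). Single delGLN3 arrays spread more than the flask means, at 0.25, 1.59, 0.29 and 3.06 at t90 and 0.48, -0.79, 0.13 and -3.24 at t120, where the arrays of flask 5 lay on opposite sides of 0. The OPI3 difference from the other deletion strains passed in every alternative run, with a highest adjusted p of 0.00749. PST2, for a flavodoxin-like protein, had -0.31 to 0.92 in delGLN3 and 1.04 to 3.10 in the other strains (difference -1.81, SE 0.35, adjusted p = 0.00103).

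DMA2, a ubiquitin ligase gene of spindle positioning, had flask means of 0.70, 0.74, 0.42, 2.77 and 0.80 in delGLN3 and -1.73 to 0.30 in the other strains (difference 1.53, SE 0.29, adjusted p = 0.00103). SSU1, a sulfite efflux pump gene, and ARG8, an arginine synthesis gene, were 1.90 and 1.52 higher. DSE3 was 1.80 higher, and STV1, a proton pump subunit measured in 3 delGLN3 flasks, was 2.10 higher. With only delCIN5 and delZAP1 as the other strains, DMA2, PST2, STV1, SSU1 and DSE3 did not pass. Without delSWI4, SSU1, DSE3 and ARG8 did not pass. CIN5 passed against wild type (difference 3.11, SE 0.60, adjusted p = 0.00671) and against the other strains (2.37, SE 0.53, adjusted p = 0.00997), of which delCIN5 lacks the gene. Its flask means were 0.30, 2.06, 4.40, 4.56 and 3.73 in delGLN3 and -1.78 to 0.81 in wild type, so flask 1 overlapped wild type.

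Over all 5699 frames, 0.579% were higher than in the other strains and 0.421% lower. Among the lists, arginine synthesis had 3 of 10 members higher, ARG1 (2.91), ARG3 (1.54, chosen after its values were seen) and ARG8. Mitosis and exit had 3 of 23 higher, the daughter-cell wall genes SCW11 (1.92), DSE1 (2.00) and DSE2 (2.42, likewise). DNA replication had 3 of 37 lower, all ribonucleotide reductase genes, RNR4 (-3.45), RNR1 (-2.29) and RNR3 (-1.65). Without flask 5 the arginine and DNA replication counts were 1 each, and without the t120 array of flask 1 the mitosis and exit count was 5. General stress had 2 lower, with a median difference of -0.84 and 7 of 34 members above 0. Glycolysis had 2 lower of 22, with a median of -1.21, and phospholipid synthesis 2 lower of 16, with a median of -0.11. RNR4 had flask means of -1.46, -5.32, -6.24, -4.35 and -2.63 in delGLN3 and -1.55 to 3.45 in the other strains, where flask 1 alone overlapped. The count of 57 was 35 without flask 4, 30 without flask 5, 16 without delSWI4 and 9 with delCIN5 and delZAP1 alone, whose slides were all coated like those of delGLN3.

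**Figure D5:**
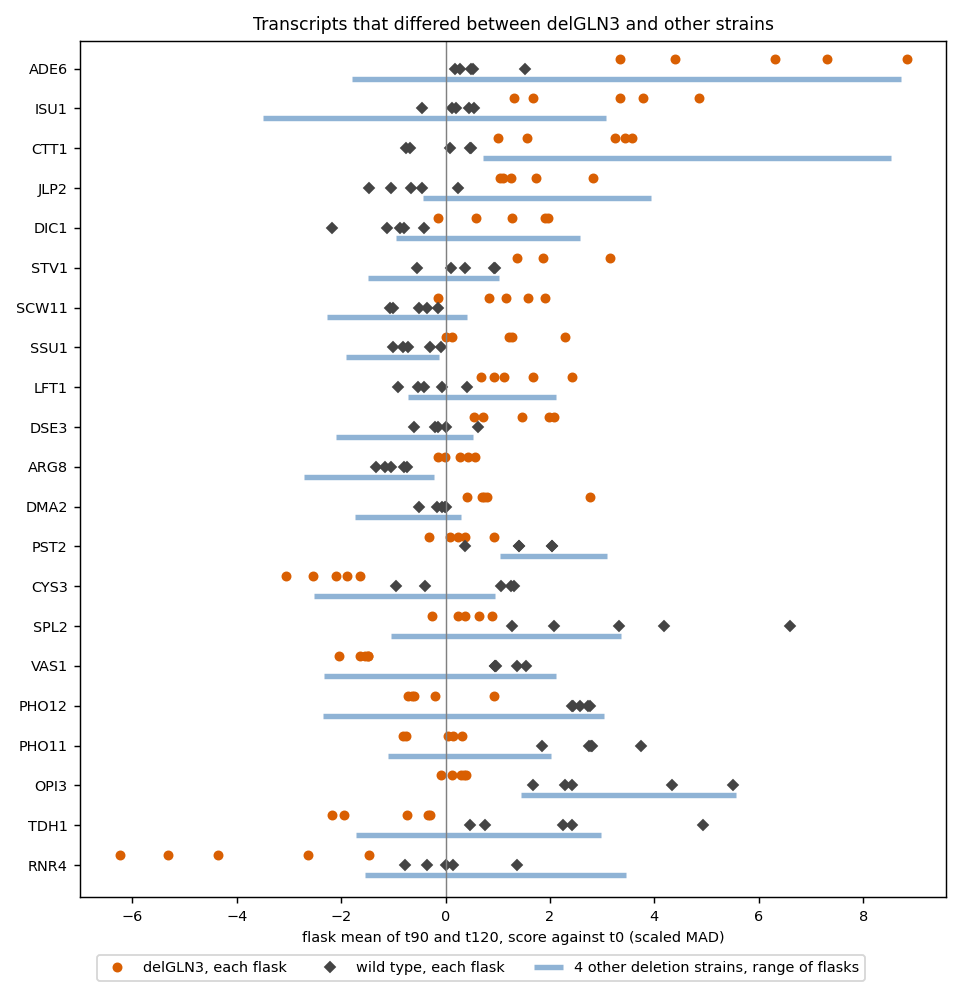
Recovery flask means against t0 (scaled MAD, horizontal axis) of transcripts that differed between delGLN3 and other strains. Circles are the 5 delGLN3 flasks, diamonds the 5 wild-type flasks and bars the range over flasks of 4 other deletion strains. For PHO11 the delGLN3 flasks lie between -0.81 and 0.32 and the wild-type flasks between 1.84 and 3.74; for OPI3 the delGLN3 flasks lie below both.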

How the data were processed

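Transcripts were measured on 2-dye microarrays, each comparing a shifted sample with t0 of the same flask, and the t0 sample of a flask was shared by all its arrays. The deposited value is a score per open reading frame that the authors made with limma, per the submitters' processing notes; its version, log base, background correction and normalization are not given in the sources used here. The number of arrays limits the precision. All columns matched a sample by title (unmatched columns 0), and 5674 of 6178 frames were matched by locus tag to the RefSeq gene table of assembly R64 for symbols. No sequences were used here.

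Strain, time, flask, dye, chip and coating were taken from the labels. Scores were fitted as deposited with limma 3.58.1 in R 4.3.3: 1 mean per strain and time, the flask as a random block (correlation 0.10 over 20 delGLN3 arrays, 0.20 over 43 with wild type, 0.27 over 94 with the other strains), moderated statistics and Benjamini-Hochberg adjustment over all frames with at least 2 values at each time. This left out 159 frames in the strain alone. The flask pairs times within a strain because they come from the same culture. Recovery is the mean of t90 and t120. The procedure was tested on simulated scores with known changes.

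The members, gene lists and tests were chosen with earlier results of these data known. Named are, among frames past the threshold with 1 sign in every flask, the 12 highest and 12 lowest in recovery, 6 and 6 at each time and between times, 6 and 6 against t60 (threshold only), 8 and 8 against other strains with flask means that do not overlap, up to 4 members of each of 40 lists, the nitrogen genes and the deleted factors; other names are marked or are members behind a list's count. Some genes that the rule names are not reported here. Alternatives changed the block, dye term, centring, missing values, threshold, flasks, strains and chips. Leaving out the t120 array of flask 1 was chosen after seeing the data.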

Additional observations from a re-analysis of the deposited data

Results flagged for a closer look

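Groups of values with 1 per flask were tested, either recovery flask means or single arrays at t90 or t120. In 2 of 44 groups, both of flask means, 1 flask lay far from the others, where chance gives about 1 in 20. OLE1, the desaturase gene, had a delGLN3 recovery mean of -1.37 in flask 1, while the other 4 flasks lay between -11.22 and -9.40. REX4, the exonuclease gene, had -10.03 in flask 4, which was measured at t120 only. The 2 arrays of flask 1 also gave scores below 0 for CWP1, at -1.08 and -0.86.

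Of the 51 transcripts whose recovery scores differed from wild type in limma, 29 had flask means that did not overlap between the strains. So did 107 of all 6017 frames tested. The 8 highest and 8 lowest of the 29 follow. Higher in delGLN3 were ADE6 by 5.03, ISU1 by 2.49, CTT1 by 2.46, JLP2 by 2.15, DIC1 by 2.10, SCW11 by 1.73, SSU1 by 1.62 and LFT1 by 1.60. The lower ones were RNR4 at -3.77, TDH1 at -3.33, OPI3 at -3.03, PHO11 at -3.02, PHO12 at -2.90, VAS1 at -2.78, SPL2 at -2.69 and CYS3 at -2.62. Against the 4 other deletion strains, flask means did not overlap in 9 of all 5699 frames tested and in 7 of the 57 that passed. These 7 were STV1 at 2.10, SSU1 at 1.90, DSE3 at 1.80, DMA2 at 1.53, ARG8 at 1.52, PST2 at -1.81 and OPI3 at -3.23. Among them STV1, SSU1, DSE3, DMA2 and PST2 did not pass with delCIN5 and delZAP1 alone. SSU1, the sulfite pump gene, and OPI3, the phosphatidylcholine synthesis gene, stand in both sets, which share the delGLN3 arrays. The part of G418, chip source and slide coating in these differences was not tested beyond the counts given for Ontario chips and coated slides.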

How the results depend on the processing

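Of the genes that the naming rule gave for a comparison, none that passed changed sign under any alternative run. Over all frames that passed, only 3 of the 57 that differed from the other strains had the other sign, at t120 alone. Genes named otherwise were not followed gene by gene. Of the genes from the rule, 5 of 64 passed against t0 in every alternative (HSP12, ADE6, RTC3, PGA3 and CYS3). The number was 2 of 12 at t90 (YAR075W and YAR074C), 0 of 12 at t120 and against t60, and 0 of 3 between the times. Against wild type it was 0 of 16, and against the other strains 1 of 7 (OPI3). PHO11 passed against wild type in 22 of 23, all but t90 alone. Counts are given below in the order recovery, t90, t120, t120 minus t90, recovery minus t60, wild type and other strains, and the cause of a shift was not tested unless fewer samples, frames or a stricter threshold made it. An adjusted p below 0.01 gave 55, 14, 0, 2, 10, 10 and 18. Leaving out each flask in turn gave 12 to 281, 4 to 69, 0 to 146, 0 to 7, 0 to 780, 7 to 52 and 30 to 73. Without the t60 array of flask 2 the first 5 counts were 382, 206, 98, 7 and 916, and without the t120 array of flask 1 the recovery, t120 and t120 minus t90 counts were 403, 188 and 11. The 8 recovery arrays alone gave 50, 16, 0 and 0 (337 at an unadjusted p below 0.05 for the last), and 1 mean per flask 44. A dye term gave 5 and frames measured on every array 1 for t120 minus t90, and that last setting gave 16 and 22 for the strain comparisons. Against wild type, Ontario chips alone gave 21, recovery arrays alone 2, t90 alone 27 and t120 alone 9. Against the other strains, leaving out delSWI4 gave 16, and delCIN5 with delZAP1 alone 9. Centring or scaling the arrays and robust moderation kept every count within 1.5 times.

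With no replicate block the counts were 297 for recovery, 97 against wild type and 113 against the other strains. With the flask as a fixed replicate block, which pairs times of 1 culture, 185 frames differed from t60 and 4 between t120 and t90. Flask numbers do not pair strains: same-numbered delGLN3 and wild-type flasks had correlations of 0.10, 0.01, 0.01 and 0.07 in their deviations, and the number as a replicate block gave 86 against wild type and 128 against the other strains.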

Other observations

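Transcripts outside the groups above passed as well. YHB1, for the flavohemoglobin that detoxifies nitric oxide, read -2.74, -0.36, -0.72 and -0.89 at t90 and 0.79, -3.50, -5.80 and -5.42 at t120 in delGLN3 (t120 mean -3.48, SE 0.72, adjusted p = 0.0315 in limma). It was below 0 on all arrays but the t120 array of flask 1, and it was named after its values were seen. CLN1, a G1 cyclin gene, was above 0 on all 8 arrays, at 0.13, 0.53, 1.88 and 2.69 at t90 and 1.12, 0.92, 1.92 and 2.48 at t120 (mean 1.46, SE 0.28, adjusted p = 0.00665). Of the 24 genes of G1 and bud emergence, it and the cell wall gene SVS1 (1.54) were the 2 that passed, against 123 higher of 6019 frames (2.04%). That list had a median of 0.13. Neither gene passed without flask 4, without flask 5, on the 8 recovery arrays alone or with 1 mean per flask.

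COX5B and CYC7 code for the forms of a cytochrome oxidase subunit and of cytochrome c that are known from low oxygen. COX5B read 2.20, 2.82, 1.30 and -0.17 at t90 and -0.38, 1.77, 4.37 and 1.71 at t120 (mean 1.71, SE 0.41, adjusted p = 0.0227). CYC7 read -0.49, 1.41 and 1.18 at t90 and -0.18, 1.31, 5.61 and 5.63 at t120 (t120 mean 3.12, SE 0.69, adjusted p = 0.0417). The highest values of both were in flask 4 or 5 at t120. COX5B was the 1 of 34 respiratory chain genes that passed over both times, against 2.04% of all frames higher. CYC7 was the 1 of 34 at t120, against 0.498% higher, and did not pass over the mean of both times. COX5B did not pass without flask 2, 4 or 5, on the 8 recovery arrays alone or with 1 mean per flask.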
